A study of Homo sapiens with 24 samples.

Results

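The NRF2 antioxidant program was followed in A549 cells, an established human lung adenocarcinoma line, through 36 member genes. They were chosen by name, with earlier results of these data known: the factor NRF2 (gene NFE2L2), its sensor KEAP1 and 34 genes that NRF2 is known to drive. All 36 were matched to a single Ensembl identifier among the 58721 genes of the deposited count files, and all 36 passed the filter on low counts in every comparison. The study asked which genes respond when the cell-cycle factors MYBL2 and FOXM1 are removed by siRNA or when the FOXM1 inhibitor FDI-6 is added, and RNA-seq was done on 24 libraries. Cells were transfected with 25 nM of siRNAs against MYBL2 (siMYBL2, 4 libraries) or FOXM1 (siFOXM1, 4 libraries) and set against scrambled siRNA (siControl, 4 libraries). In a separate experiment both siRNAs were given together (siBoth, 3 libraries) and set against another scrambled control (siControl_Both, 3 libraries). In the third experiment cells received 20 µM FDI-6 for 24 h (FDI6, 3 libraries) and were set against control cells (control_FDI6, 3 libraries). The labels do not name a vehicle for control_FDI6, which the study describes as DMSO, nor how the siRNA dose was divided in siBoth. Every library comes from this 1 cell line, each siRNA reagent is a pool, and no cells with an intact KEAP1 were sequenced.

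NRF2 is a transcription factor that is made continuously and destroyed almost as fast, because KEAP1 presents it to the CUL3 ubiquitin ligase. Electrophiles and oxidants modify KEAP1, NRF2 then accumulates, pairs with a small MAF protein and binds the antioxidant response element in front of genes for glutathione synthesis, thioredoxin recycling, carbonyl reduction, NADPH supply, iron storage and drug export. BACH1 competes for the same element and represses a part of these genes, HMOX1 foremost. A549 carries a mutated KEAP1, and the program is known to be active in this line without any added stress.

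The libraries held 16487394 to 30140550 read pairs counted on genes. The share of pairs that did not align was 1.73% to 3.03% in the single knockdown and FDI-6 experiments and 7.68% to 10.9% in the double knockdown experiment. Both siRNA pools lowered their targets: MYBL2 fell by 4.58 and FOXM1 by 3.38 on the log2 scale in the respective single knockdowns, and by 4.35 and 3.37 in siBoth. FOXM1 also fell by 0.73 with siMYBL2 (log2, adjusted p = 0.00754). With FDI-6, MYBL2 was at -0.51 and FOXM1 at -0.37 (log2). As markers of the line, the summed level of 5 epithelial genes was 2731 to 8248 CPM in every library, most of it from KRT8 and KRT18. CPM are counts scaled by the library total and the TMM factor. The 3 leukocyte genes together never exceeded 0.270 CPM. In siBoth and siControl_Both the epithelial gene EPCAM measured only 1.67 to 3.60 and 2.97 to 4.16 CPM. There the fibroblast gene COL1A1 measured 34.0 to 58.8 and 29.4 to 40.0 CPM, while COL3A1 and PDGFRB reached at most 1.37 CPM. CPM compare 1 gene between libraries. Levels of different genes are compared only per length, in TPM, where counts are first divided by exon length.

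The core of the antioxidant response element, TGACNNNGC, was searched on both strands of the RefSeq promoter (GRCh38.p14, from 250 bases before to 50 after the start). RefSeq entries were found for 26 of the 36 members, and 10 of the 26 (38.5%) held the core, against 4384 of 27305 genes (16.1%). The windows below are shown because they carry the core, in capitals, before the RefSeq start of members that went different ways with FDI-6. GPX2, EPHX1 and PGD were lower, TXNRD1 was higher and ME1 did not pass the test. The windows are written on the strand of the gene and lie in no annotated exon. That of GPX2 (chr14:64942839-64942887) lies within the CHURC1 gene. Those of EPHX1 (chr1:225825256-225825304) and PGD (chr1:10398843-10398891) lie inside the annotated EPHX1 and PGD genes themselves. Those of TXNRD1 (chr12:104215660-104215708) and ME1 (chr6:83431160-83431208) lie in no annotated gene.
GPX2: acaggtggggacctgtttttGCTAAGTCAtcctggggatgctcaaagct
EPHX1: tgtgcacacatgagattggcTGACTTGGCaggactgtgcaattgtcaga
PGD: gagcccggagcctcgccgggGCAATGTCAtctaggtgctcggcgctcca
TXNRD1: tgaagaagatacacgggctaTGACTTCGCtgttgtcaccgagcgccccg
ME1: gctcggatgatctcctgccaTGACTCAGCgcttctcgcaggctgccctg
In GPX2 and PGD the core is read on the opposite strand. The core was present in 6 of the 17 members with an entry that were lower with FDI-6 (35.3%) and in 4 of the 9 others (44.4%). A match describes letters in this window and not a bound site.

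In control cells the program was abundant. Per length, 28 of the 36 members stood above 90% of the 15848 genes with at least 1 TPM in siControl, and 15 stood above 99% of them. In siControl_Both these numbers were 26 and 12, and in control_FDI6 they were 29 and 13. FTL, the light chain of the iron store ferritin, led with a mean of 22862 TPM in siControl and stood above 99.98% of those genes. AKR1B10, an aldehyde reductase, followed with 6649.9 TPM, then the aldehyde dehydrogenase ALDH3A1 with 2084 TPM, thioredoxin (TXN) with 1788 TPM and the quinone reductase NQO1 with 1757 TPM. The lowest were NFE2L2 with 21.8 TPM, SRXN1 with 18.05 TPM and the carbonyl reductase CBR3 with 4.63 TPM. TPM here divide by the merged exons of all annotated isoforms, which lowers the value of a gene such as NFE2L2, whose merged exons span 14975 bases against 2446 in its canonical transcript. Per length of the canonical transcript NFE2L2 ranked 31 of the 36 members in siControl, against 34 by merged exons, and SRXN1 and CBR3 ranked 35 and 36 either way. At the top FTL, AKR1B10 and ALDH3A1 ranked 1, 2 and 3 either way. By canonical length AKR1C3 and PRDX1 followed at 4 and 5 (8 and 6 by merged exons), and TXN and NQO1 ranked 6 and 9 (4 and 5).

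**Figure D1:**
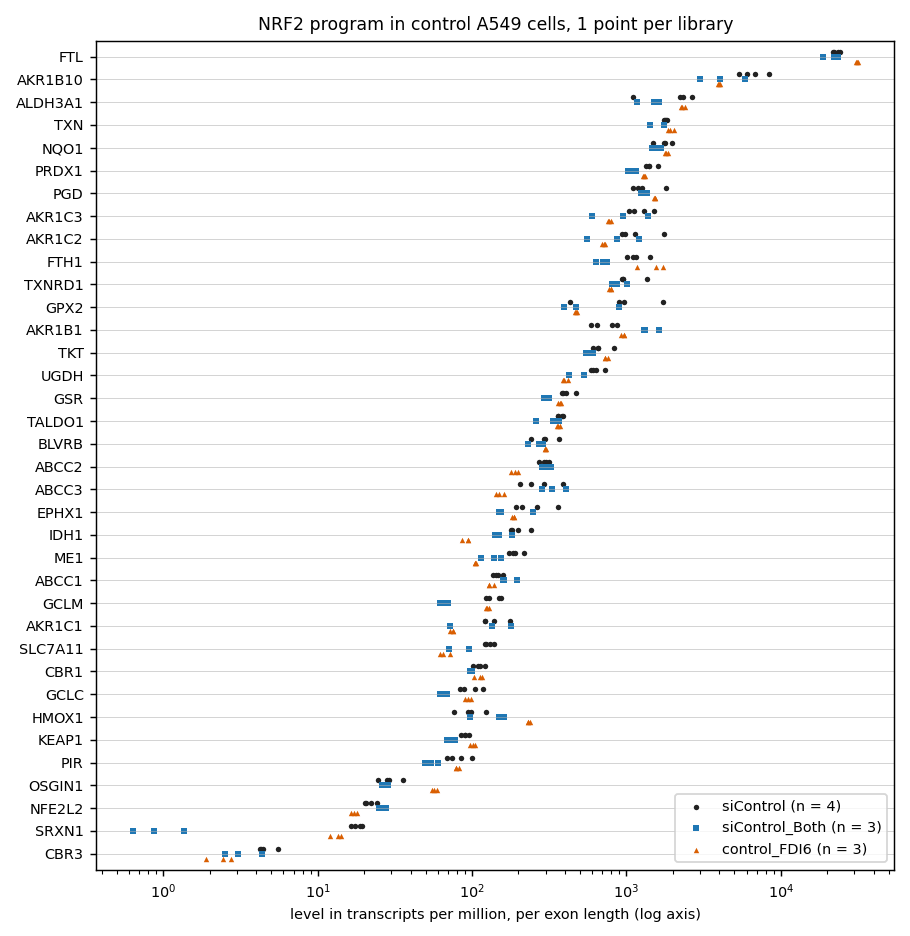
Level of each member in TPM, per merged exon length of all isoforms (log axis), in the 3 control groups, 1 point per library. FTL lies highest and CBR3 and SRXN1 lowest, and SRXN1 lies near 1 TPM in the siControl_Both libraries only.

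The 3 control groups were not alike. HMOX1, the oxygenase that opens heme, measured 46.9 to 75.4 CPM in siControl, 63.7 to 104 CPM in siControl_Both and 164 to 169 CPM in control_FDI6. GCLM, the modifier subunit of glutamate-cysteine ligase, measured 174 to 217 CPM in siControl and 208 to 217 CPM in control_FDI6, but 95.8 to 106 CPM in siControl_Both. SRXN1, which restores oxidised peroxiredoxins, measured 11.02 to 12.6 CPM, 9.42 to 11.4 CPM and 0.459 to 0.952 CPM in the same order. The control groups come from different experiments, and each treatment was compared only with its own control. Both siControl and siControl_Both received scrambled siRNA. Where control_FDI6 is set beside them, experiment and transfection cannot be told apart. The cause of the differences between the control groups was not tested. Another annotated gene covers 90.7% of the exon bases of SRXN1 on the same strand, and HTSeq drops a pair that fits both.

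With FDI-6 the program as a whole was lower. The 36 members together took 30359, 30364 and 31716 CPM in the control_FDI6 libraries and 23172, 23667 and 23952 CPM in the FDI6 libraries. Without FTL, which supplies the largest part, the sums were 21893 to 23067 CPM and 17357 to 17684 CPM. In both sums the groups did not overlap. The median log2 fold change was -0.41 over the members and -0.01 over all 15240 genes tested, and 30 of the 36 members had a negative value. RNA was measured in bulk, so fewer cells of a kind and less RNA per cell cannot be told apart.

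Genes were called when the adjusted p was under 0.05 and the fold change over 1.5. By this rule 9 members fell and 1 rose with FDI-6, against 5.77% of all genes called lower and 8% called higher. On the adjusted p alone 22 members were lower and 3 higher, against 17.9% and 21% of all genes. Abundant genes pass this test more easily, so the shares were also taken over the 4271 genes with at least 50 CPM in the controls, which hold 34 of the members. Of these genes 4.78% fell by both criteria and 31.1% were lower on the adjusted p alone, and the members' counts there were again 9 and 22. Every FDI6 library lay below every control library for 26 members, against 24.9% of all genes, and above every control library for 3 members, against 26.7%. The members were chosen with earlier results of these data known, so these shares are a description.

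**Figure D2:**
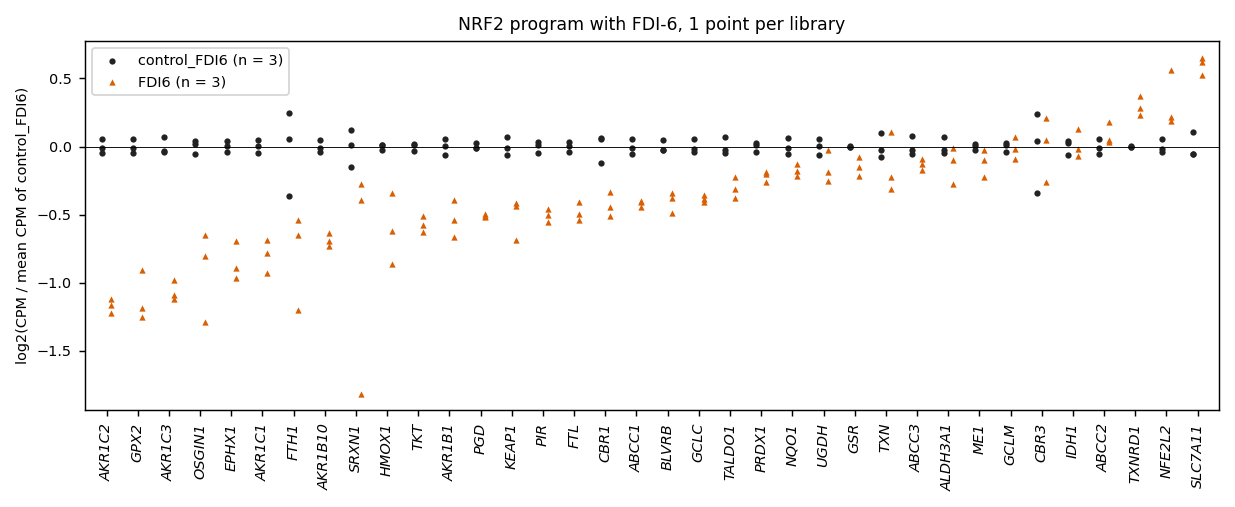
Each library's CPM relative to the mean of the control_FDI6 libraries (log2) for the 36 members, ordered by the fitted change with FDI-6. The 3 FDI6 libraries lie below the controls from AKR1C2 at the left through NQO1, with CBR3, IDH1 and GCLM among the controls and SLC7A11 above them, and FDI6 replicate 1 stands apart in SRXN1, FTH1 and OSGIN1.

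AKR1C2 had the largest fall, followed by GPX2 and AKR1C3. The aldo-keto reductases are NADPH-dependent enzymes that reduce aldehydes, ketones and steroids. AKR1C2 measured 1396, 1333 and 1299 CPM in the control libraries and 617, 575 and 599 CPM with FDI-6. It fell by 1.17 ± 0.055 on the log2 scale (SE, adjusted p = 9.22e-08). AKR1C3 went from 984, 920.1 and 914 CPM to 477, 441 and 433 CPM, a log2 change of -1.06 (adjusted p = 2.98e-07). In both genes each treated library held less than any control library by a wide gap.

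AKR1C1 went from 209, 203 and 196 CPM to 118, 106 and 126 CPM (log2 change -0.80, adjusted p = 1.26e-05). These 3 genes lie next to each other on chromosome 10 (hg38), AKR1C1 at 4963253 to 4983283, AKR1C2 at 4987775 to 5018031 and AKR1C3 at 5035354 to 5107686, and their transcripts share 9.05% to 29.6% of read-sized windows with other genes, largely each other. Pairs from the shared stretches fit several places and are left out, so the 3 counts are partial. Whether pairs of 1 of these genes were counted in another was not tested. AKR1B10 fell from 2263, 2124 and 2175 CPM to 1408, 1349 and 1319 CPM (log2 change -0.69, adjusted p = 2.51e-06). AKR1B1, its neighbour on chromosome 7, had a log2 change of -0.53 (adjusted p = 0.000199), which is under the 1.5-fold line.

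EPHX1, the microsomal epoxide hydrolase, fell from 147, 143 and 139 CPM to 88.3, 76.8 and 73.2 CPM (log2 change -0.85, adjusted p = 1.09e-05). In this role group of 10 quinone, aldehyde and carbonyl enzymes, 5 were called lower and 8 were lower on the adjusted p, with a median log2 change of -0.61. NQO1, the classic readout of NRF2, moved little: it measured 1750.5, 1616 and 1662 CPM in the controls and 1529.9, 1479.6 and 1446 CPM with FDI-6, a log2 change of -0.18 (adjusted p = 0.0189). Leaving out single libraries moved its adjusted p to between 0.000442 and 0.0958. ALDH3A1 (-0.13) and CBR3 (0.01) did not pass the test, CBR3 at under 1 CPM in each of these libraries.

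Genes of glutathione and cystine supply went in opposite directions. GPX2, a glutathione peroxidase of epithelia, measured 205, 191 and 196 CPM in the controls and 105, 82.9 and 86.8 CPM with FDI-6, and fell by 1.11 ± 0.086 (SE, log2, adjusted p = 3.21e-06). With all 24 libraries in 1 fit GPX2 lost this call (log2 change -1.11, adjusted p = 0.0772). SLC7A11, which carries cystine into the cell as the starting material for glutathione, measured 191, 191 and 214 CPM in the controls and 313, 287 and 306 CPM with FDI-6. Its log2 change was 0.60 ± 0.068 (SE, adjusted p = 5.08e-05), just past the fold line, with no overlap between the groups. It was the only member called higher, and the call was lost with upper-quartile scaling (log2 change 0.56) and in 4 of 6 fits that left out 1 library, while its adjusted p stayed under 0.05 in each.

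The subunits of glutamate-cysteine ligase differed from each other: the catalytic subunit GCLC was lower (log2 change -0.38, adjusted p = 0.000458), whereas GCLM measured 217, 214 and 208 CPM in the controls and 223, 200.01 and 210.3 CPM with FDI-6 and overlapped with them (log2 change -0.02, adjusted p = 0.867). Glutathione reductase (GSR) was at -0.15 (adjusted p = 0.0582). Of these 5 genes, 1 was called higher and 1 lower.

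The heme and iron genes were lower throughout, all 4 on the adjusted p and 2 by both criteria. FTH1, the heavy chain of ferritin, went from 1105, 723 and 968 CPM to 405, 642 and 595 CPM (log2 change -0.77 ± 0.17 SE, adjusted p = 0.00365). FTL went from 8235 to 8649 CPM in the controls to 5815 to 6365 CPM, a log2 change of -0.48 (adjusted p = 2.99e-05). HMOX1 went from 169, 169 and 164 CPM to 91.9, 109 and 132 CPM (log2 change -0.60, adjusted p = 0.00126), and BLVRB, a biliverdin reductase, was at -0.40 (adjusted p = 0.000718). FTH1 overlaps the BEST1 gene on the opposite strand over 63.2% of its exon bases and shares 23% of its windows with pseudogenes, so its count is partial. HMOX1 dropped under the fold line without FDI6 replicate 1 (log2 change -0.47) or replicate 2 (-0.58).

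The thioredoxin genes did not move as a block. TXNRD1, the reductase that recycles thioredoxin, was slightly higher, from 1644, 1639 and 1649 CPM to 1927, 2003 and 2130.4 CPM (log2 change 0.29, adjusted p = 0.00137). The peroxiredoxin PRDX1 was lower (-0.22, adjusted p = 0.00736), and TXN was at -0.14 (adjusted p = 0.276). SRXN1 measured 11.4, 10.6 and 9.42 CPM in the controls and 2.97, 7.98 and 8.62 CPM with FDI-6 (log2 change -0.67 ± 0.28 SE, adjusted p = 0.0726), and FDI6 replicate 1 lay far below the other two. SRXN1 passed without the low-count filter (adjusted p = 0.000169) and without FDI6 replicate 3 (0.0212).

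Of the 5 enzymes that feed NADPH to these reductases, PGD, TKT and TALDO1 of the pentose phosphate pathway were lower on the adjusted p, with log2 changes of -0.51, -0.57 and -0.31, and none passed the fold line. The malic enzyme ME1 (-0.12) and the isocitrate dehydrogenase IDH1 (0.01) did not pass the test. Among the export and conjugation genes the efflux pump ABCC1 was lower (-0.42, adjusted p = 0.000215), and ABCC2 (0.09), ABCC3 (-0.13) and the glucuronate-producing UGDH (-0.15) did not pass. OSGIN1, an oxidative stress growth inhibitor, fell from 99.6, 101 and 94.7 CPM to 40.2, 62.9 and 56.3 CPM (log2 change -0.89, adjusted p = 0.000313). PIR, the iron-binding nuclear protein pirin, measured 63.3, 60.7 and 64.1 CPM in the controls and 44.2, 45.5 and 42.8 CPM with FDI-6 (log2 change -0.51, adjusted p = 0.000269).

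The factor and its sensor moved in opposite directions. NFE2L2 measured 77.8, 79.1 and 83.4 CPM in the controls and 118, 93.1 and 91.2 CPM with FDI-6, a log2 change of 0.33 ± 0.095 (SE, adjusted p = 0.0177). KEAP1 measured 118, 111 and 107 CPM in the controls and 69.7, 82.7 and 84.0 CPM with FDI-6, a log2 change of -0.51 ± 0.084 (SE, adjusted p = 0.000725). In both genes the groups did not overlap and FDI6 replicate 1 lay farthest from the controls, and neither gene passed the fold line. NFE2L2 lost its adjusted p without control_FDI6 replicate 1 (0.0837) or replicate 2 (0.0707). Other genes overlap 24.8% of the exon bases of NFE2L2 on the opposite strand and 13.6% on the same strand, so its count may be affected. The amount of NRF2 protein was not measured here.

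FDI6 replicate 1 was the lowest of the 3 treated libraries for KEAP1, OSGIN1, FTH1, HMOX1 and SRXN1. Without it, 8 members were called lower and none higher. Beside the members, the share of pairs outside genes was 4.86% to 4.93% in the FDI6 libraries and 3.99% to 4.38% in their controls. Epithelial markers moved with FDI-6 too: KRT8, KRT18 and CDH1 fell by 0.81, 0.65 and 1.49 on the log2 scale, 4 of the 5 markers were lower and 1 higher on the adjusted p, and their summed level went from 7571 to 8248 CPM to 4282 to 5079 CPM. The 3 endothelial genes together reached at most 0.524 CPM in either group and the 3 fibroblast genes at most 20.6 CPM (COL1A1 at -1.28). The part of these in the fall of the program was not tested.

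Of a second list of 20 NRF2 targets outside the members, also chosen with earlier results known, 19 could be tested with FDI-6. None was called higher and 3 were called lower, CYP4F3 (log2 change -0.94), TRIM16 (-0.65) and GSTM3 (-0.61). On the adjusted p alone 13 of the 19 were lower and none higher (1 higher at an unadjusted p under 0.05), and the median was -0.31. Among 11 regulators of the pathway, 3 rose and 1 fell. BACH1, the repressor that competes with NRF2, went from 17.7, 18.6 and 16.6 CPM to 40.5, 34.2 and 33.9 CPM (log2 change 1.04, adjusted p = 1.59e-05). The small MAF protein MAFF had a log2 change of 1.32 and SQSTM1, an autophagy receptor that binds KEAP1, one of 0.69. MAFK, another small MAF protein, was at -0.78.

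The ATF4 and heat shock lists had positive medians in the same libraries. Of 10 genes of the ATF4 response to amino acid and endoplasmic reticulum stress, 6 were called higher, with ATF3 at 1.88, DDIT3 at 1.39 and TRIB3 at 1.21 (log2), none was lower and the median was 0.99. ATF4 is also a known activator of SLC7A11, and its part in the change of SLC7A11 was not tested. Of 8 heat shock genes, 1 was called higher (HSPA1B at 0.67), 7 were higher on the adjusted p and the median was 0.41. Of 5 metallothionein genes 3 could be tested, and MT2A was called higher (1.54), while MT1F was at 0.15 (adjusted p = 0.621) and MT1X at -0.58 (adjusted p = 0.342).

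**Figure D3:**
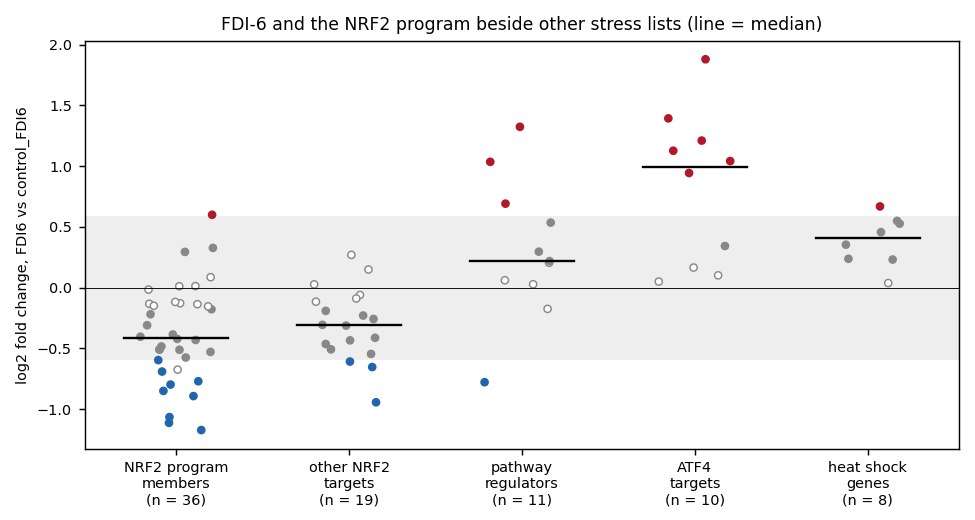
Log2 fold change with FDI-6 for the members and for 4 other gene lists. Each point is a gene, red if called higher, blue if called lower, filled if the adjusted p was under 0.05, the line is the median and the grey band marks changes under 1.5-fold. The medians are -0.41 for the members, -0.31 for the other NRF2 targets, 0.22 for the regulators, 0.99 for the ATF4 list and 0.41 for the heat shock list.

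With knockdown of MYBL2 few members passed the test. By both criteria 2 of the 36 members fell and 0 rose in edgeR, against 3.52% and 4.38% of all genes, and DESeq2 also called 0 higher. At an unadjusted p under 0.05 in edgeR, 4 members were higher and 4 lower, against 32.2% of all genes in either direction. The median log2 change was -0.01 over the members and 0.01 over all genes. ABCC1, which exports glutathione conjugates, measured 333, 315, 338 and 360.3 CPM in siControl and 183, 204, 190 and 171 CPM in siMYBL2. It fell by 0.85 ± 0.072 (SE, log2, adjusted p = 0.000233), and the lowest control library lay far above the highest siMYBL2 library.

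HMOX1 measured 46.9, 75.4, 56.7 and 58.4 CPM in siControl and 32.5, 38.9, 28.9 and 43.7 CPM in siMYBL2. It fell by 0.72 ± 0.16 (SE, log2, adjusted p = 0.0166), with no overlap between the groups, and without siMYBL2 replicate 1 the adjusted p was 0.0552. On the adjusted p alone 3 members were lower, against 9.53% of all genes, and 2 were higher, against 8.53%. The other lower one was GCLM, with 186, 216, 174 and 217 CPM in siControl and 131, 155, 114 and 159 CPM in siMYBL2 (log2 change -0.50, adjusted p = 0.0177, and 0.0583 without siMYBL2 replicate 1). The higher ones were SLC7A11 and TALDO1. SLC7A11 measured 309, 353, 312 and 324 CPM in siControl and 434, 438, 437 and 428 CPM in siMYBL2 (log2 change 0.42, adjusted p = 0.00237), and the pentose phosphate enzyme TALDO1 was at 0.29 (adjusted p = 0.0087).

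Same-numbered libraries of the siRNA experiments deviated together. GPX2 shows it: replicate 3 was the lowest of its group in siControl (151 CPM), siMYBL2 (188 CPM) and siFOXM1 (172 CPM), and replicate 4 the highest (593, 654 and 626 CPM). With the replicate number as a block, 12 members were lower and 8 higher on the adjusted p in siMYBL2, against 23.1% and 23.6% of all genes. The added members were small changes, the lowest being OSGIN1 at -0.30, ALDH3A1 at -0.27 and AKR1C2 at -0.25 and the highest PIR at 0.33. ABCC1 and HMOX1 were still the only members past both criteria under the block.

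Knockdown of FOXM1 changed no member past the threshold. In edgeR 0 of 36 were called by both criteria (0.591% of all genes fell and 0.0755% rose) or on the adjusted p alone (1.09% and 0.277%). DESeq2 also called 0, and 1 member had an unadjusted p under 0.05 in edgeR, against 13% of all genes. The log2 changes ran from -0.47 (CBR3) to 0.30 (PIR), with a median of 0.02 and a median SE of 0.11. With the block, 10 members were higher and 3 lower on the adjusted p, against 12.3% and 14% of all genes. The largest of these were OSGIN1 and PIR, at 0.30 and 0.29, followed by GCLM and ABCC3 at 0.18, while TXNRD1 at -0.15 was the lowest, and none passed the fold line.

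In the double knockdown 1 member rose and 1 fell, against 2.8% and 3.64% of all genes. ABCC1 measured 491, 390.1 and 393 CPM in siControl_Both and 289, 252 and 259 CPM in siBoth, and fell by 0.67 ± 0.11 (SE, log2, adjusted p = 0.00921). PIR measured 39.2, 34.5 and 42.9 CPM in siControl_Both and 55.9, 53.1 and 68.6 CPM in siBoth, a log2 change of 0.61 ± 0.12 (SE, adjusted p = 0.0182). The groups did not overlap in either gene. Without siControl_Both replicate 2 the adjusted p of PIR was 0.0712, without siBoth replicate 3 its log2 change was 0.48, and without siControl_Both replicate 1 that of ABCC1 was -0.56, under the fold line.

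On the adjusted p alone 2 members were lower, against 7.77%, and 1 was higher, against 4.55%. The added one was GCLM, with 95.8, 106 and 99.6 CPM in siControl_Both and 79.4, 72.0 and 74.4 CPM in siBoth (log2 change -0.42, adjusted p = 0.0163). HMOX1 measured 63.7, 95.9 and 104 CPM in siControl_Both and 46.9, 46.5 and 70.0 CPM in siBoth. Its log2 change of -0.69 did not pass in edgeR (adjusted p = 0.0716), and the lowest control library lay below the highest siBoth library. HMOX1 was called lower by DESeq2 (adjusted p = 0.0121), with all 24 libraries in 1 fit (0.0238), without the low-count filter (4.99e-06), with the block (4.23e-05) and without siBoth replicate 3 (0.0268) or siControl_Both replicate 1 (0.028). Leaving out any other library gave an adjusted p of 0.168 to 0.204. With the block, 7 members were higher and 4 lower on the adjusted p, against 16.3% and 18.5% of all genes. SRXN1 was under 1.2 CPM in all 6 libraries and its change (0.17 ± 0.42 SE) was not detectable at this low level.

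The effect of siBoth did not differ from that of siMYBL2 for any member in a fit of all 24 libraries, where 0.0282% of all genes differed upward and 0.276% downward (edgeR; 1 member upward and 1 downward at an unadjusted p under 0.05). HMOX1 (-0.72 and -0.69), ABCC1 (-0.85 and -0.67), GCLM (-0.50 and -0.42) and PIR (0.33 and 0.61) had the same sign in both knockdowns, whose controls are separate. DESeq2 also found 0 members, and with the block 3 members (ALDH3A1, OSGIN1 and PIR) had a higher value in siBoth and 0 a lower one, against 2.05% and 4.53% of all genes. Outside the members, the retinal dehydrogenase ALDH1A1 was called lower in both, by 1.55 in siMYBL2 and by 1.59 in siBoth (log2). It was the only one of the 20 other targets called in either knockdown. Of the regulators, 0 were called in the 3 knockdowns in edgeR. At an unadjusted p under 0.05, 5 to 6 of 11 passed in siMYBL2 and siBoth and 3 in siFOXM1, against 32.2%, 29.6% and 13% of all genes. On the adjusted p alone BTRC was higher in siMYBL2 (0.31) and siFOXM1 (0.42) and GSK3B was higher in siMYBL2 (0.27). NFE2L1 was lower in siMYBL2 (-0.30) and CUL3 was lower in siBoth (-0.30). Of the ATF4 list, SESN2 was called higher in siBoth (0.77), and no other gene of it was called in the knockdowns. The median log2 change of the ATF4 list was -0.45 in siMYBL2, with 7 of 10 genes negative and 3 positive. It was -0.35 in siFOXM1 (9 of 10 negative) and -0.01 in siBoth (5 of 10 negative). Of the heat shock list all 8 genes were negative in siMYBL2 (median -0.19), 5 in siFOXM1 and 6 in siBoth, and none was called.

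**Figure D4:**
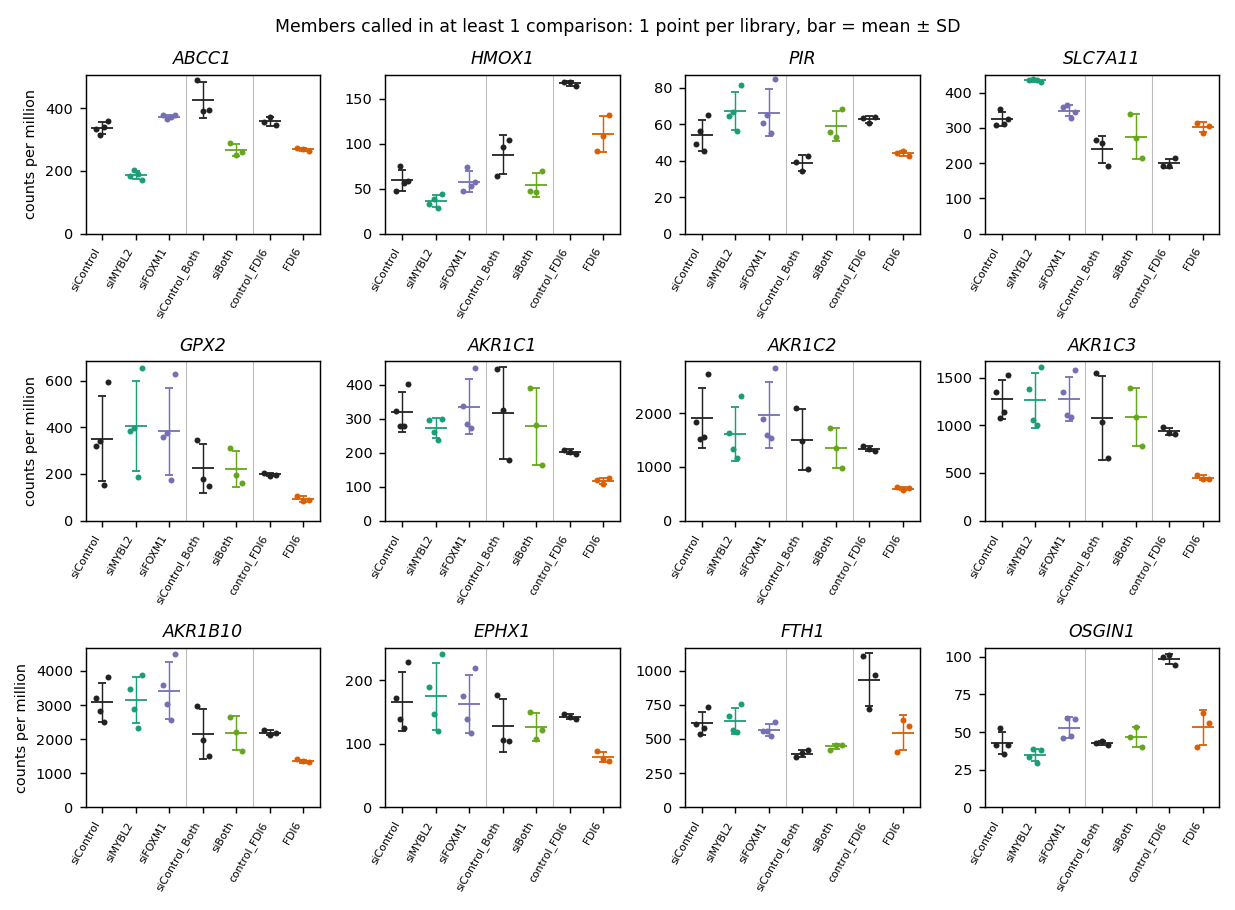
CPM of the 12 members called in at least 1 comparison, 1 point per library, with the mean and SD of each group and grey lines between the 3 experiments. ABCC1 is lower in siMYBL2, siBoth and FDI6, HMOX1 is lower in siMYBL2 and FDI6, and the AKR1C genes, AKR1B10, EPHX1 and GPX2 are lower in FDI6 with tight replicates and widely spread in the siRNA groups.

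FDI-6 is described as an inhibitor of FOXM1, so its effect was set against that of each knockdown as a difference of log2 changes in the fit of all 24 libraries. Against siFOXM1, 11 members were lower with FDI-6 and 1 was higher, against 8.12% and 11.8% of all genes. Against siMYBL2, 7 were lower and 3 higher, against 10.3% and 14.8%. Against siBoth, 10 were lower and 0 higher in edgeR, against 12.9% and 16.6%, with 3 higher at an unadjusted p under 0.05 and 0 higher by DESeq2. The 3 contrasts share the FDI6 and control_FDI6 libraries, and those with siMYBL2 and siFOXM1 also share siControl. Leaving out 1 library gave 6 to 14 differing members against siFOXM1 (7 without FDI6 replicate 1, 6 without control_FDI6 replicate 1), 7 to 18 against siMYBL2 (16 without siMYBL2 replicate 3, 18 without siControl replicate 4) and 8 to 13 against siBoth. With the replicate number as a block within each experiment, 27 members were lower and 2 higher against siFOXM1, beside 18.1% and 19.6% of all genes. Against siMYBL2 the blocked counts were 23 lower and 4 higher, beside 19.4% and 22.6%, and against siBoth 21 lower and 4 higher, beside 21.6% and 24.1%. This block also took in FDI6 and control_FDI6, whose same-numbered libraries did not deviate together. The blocked p-values of these contrasts rest in part on a pairing that was not seen.

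KEAP1, PIR, OSGIN1, FTH1, FTL and AKR1C3 passed in each of these contrasts, all with the lower value for FDI-6. For PIR the differences were -0.83 against siMYBL2, -0.81 against siFOXM1 and -1.11 against siBoth (adjusted p = 0.00417, 0.0066 and 0.000482). For OSGIN1 they were -0.59, -1.19 and -1.03 (adjusted p = 0.0343, 0.000279 and 0.00103). For KEAP1 they were -0.51, -0.51 and -0.61 (adjusted p = 0.00374, 0.00512 and 0.0011). AKR1C2 differed from siFOXM1 (-1.21, adjusted p = 0.0271) but the difference from siMYBL2 (-0.92, adjusted p = 0.0782) and from siBoth (-1.01, adjusted p = 0.0631) did not pass without the block and passed with it (adjusted p = 2.33e-09 and 6.83e-10). GPX2 passed in none without the block and in each with it, at -1.35, -1.26 and -1.14 (adjusted p = 1.39e-11, 5.99e-11 and 4.29e-10).

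ABCC1 stood between the knockdowns: its change with FDI-6 was smaller than with siMYBL2 (difference 0.43, adjusted p = 0.00605) and lower than with siFOXM1 (difference -0.57, adjusted p = 0.000932), and the difference from siBoth did not pass without the block (0.25, adjusted p = 0.107, and 0.0225 with it). SLC7A11 was higher with FDI-6 than with siFOXM1 (difference 0.50, adjusted p = 0.0306), and its difference from siMYBL2 was 0.18 (adjusted p = 0.435). GCLM and NFE2L2 were higher with FDI-6 than with siMYBL2, by 0.49 and 0.43 (adjusted p = 0.02 and 0.0133). Without the block HMOX1 did not differ past the threshold in any of the contrasts (0.13, -0.56 and 0.10 against siMYBL2, siFOXM1 and siBoth), and with it HMOX1 was lower with FDI-6 than with siFOXM1 (-0.57, adjusted p = 0.00305). The block also made SLC7A11 higher with FDI-6 than with siBoth (0.41, adjusted p = 0.000292). Across the 36 members, the rank correlation of the FDI-6 changes with those of siMYBL2, siFOXM1 and siBoth was 0.12, 0.01 and 0.09, and 0.03, -0.13 and -0.21 over all genes, as a description in which genes are not independent replicates.

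**Figure D5:**
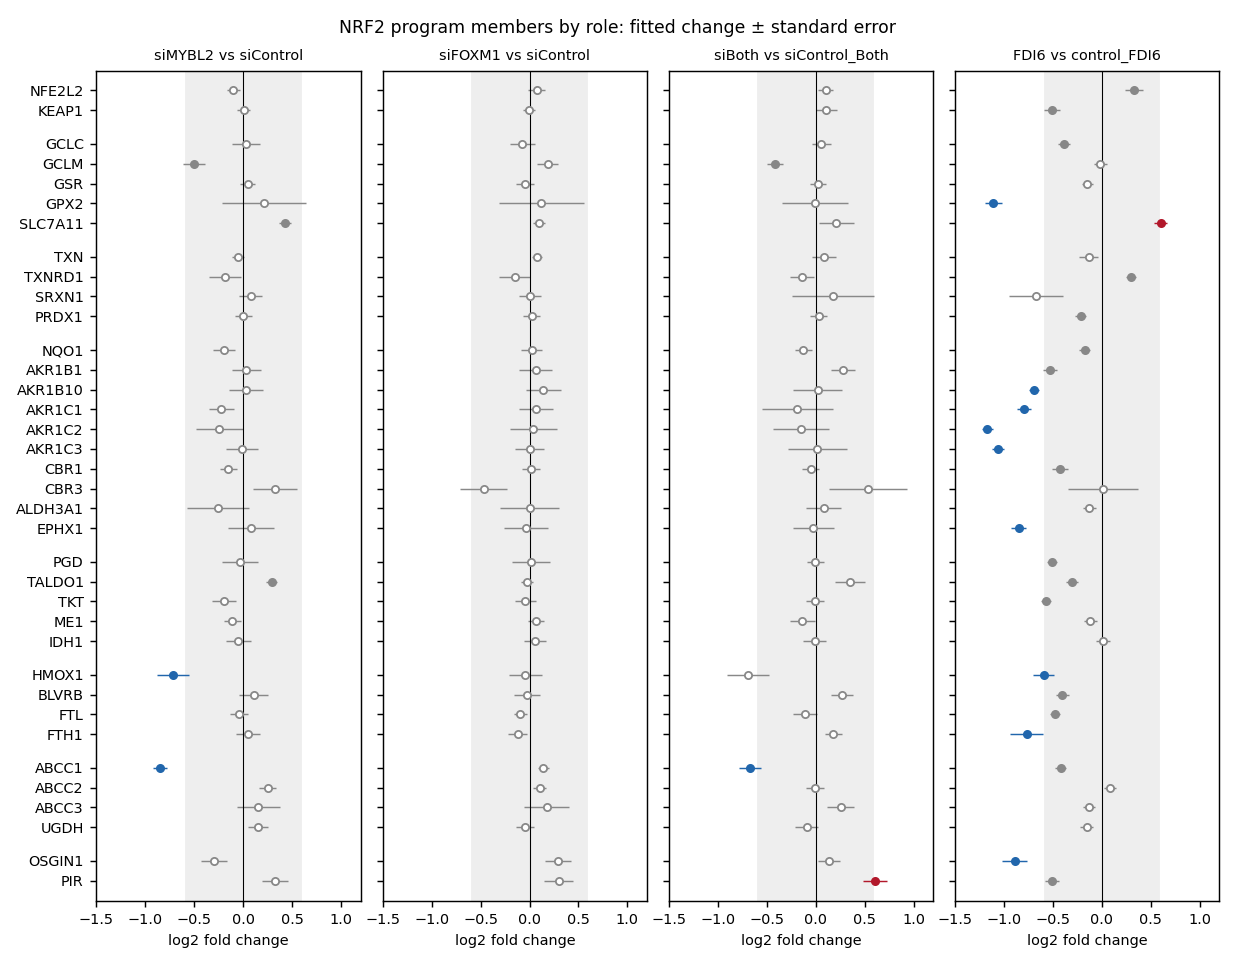
Fitted log2 fold change and standard error of the 36 members, grouped by role, in the 4 comparisons. Blue points are called lower and red higher, filled grey points have an adjusted p under 0.05 without passing 1.5-fold, open points did not pass, and the grey band marks changes under 1.5-fold. The FDI6 panel holds 9 blue points and 1 red, the siMYBL2 panel 2 blue, the siBoth panel 1 blue and 1 red, and the siFOXM1 panel none.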

How the data were processed

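Total RNA of 24 A549 libraries was sequenced. According to the study's methods the authors trimmed reads with Trim Galore, aligned them to hg38 with STAR and counted read pairs per GENCODE V29 gene with HTSeq. The deposited values are raw counts, not normalized. Pairs that fit several genes or places are left out by HTSeq, so overlapping and duplicated genes are counted in part. The strand setting is not given in the sources used here, so reads of overlapping antisense genes could not be told apart. Of the members, 8 share over 5% of their exon bases with a gene on the opposite strand and 5 with one on the same strand. On the opposite strand PRDX1 shares 29.8%, NFE2L2 24.8% and NQO1 19.4%.

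Identifiers were matched without version to GENCODE V44 (58207 of 58721 found), which also gave positions and the exon lengths behind TPM. For each comparison edgeR 4.0.16 (R 4.3.3) was run on the libraries of its pair of groups, with filterByExpr, TMM scaling, the quasi-likelihood test, no block and Benjamini-Hochberg adjustment over all genes tested. A call needed a change of more than 1.5-fold beside an adjusted p below 0.05. Differences between effects came from 1 fit of all 24 libraries, at an adjusted p under 0.05. Standard errors were derived from the log2 change and its F statistic. Printed CPM use TMM factors over all 24 libraries. The test was also run on simulated counts for the 4 comparisons (14910 to 15600 genes), scored on the adjusted p alone. It recovered 69.4% to 74.7% of genes changed by 1 on the log2 scale and 95.8% to 99% of those changed by 2. False calls were 10.6% of all calls in siBoth and 4.76% to 5.75% in the other comparisons. The simulated libraries were independent and few genes were changed. These rates therefore do not measure the sensitivity of calls by both criteria, or of tests on libraries that deviate together.

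The members and all lists were chosen with earlier results of these data known. Members called in a comparison, and NFE2L2, KEAP1, NQO1, HMOX1, GCLM, TXNRD1, SRXN1 and SLC7A11, were given in every library, and of other lists at most 3 called genes with the largest fold. Regulators, epithelial and fibroblast genes that passed only the adjusted p were named after their values were seen. Replicate numbers come from the labels. Deviations from the group means correlated at 0.539 to 0.906 between libraries of the same number in each knockdown. With FDI-6 they correlated at -0.288 to 0.161, so no pairing by number was seen there. The replicate block was still fitted in every experiment, that of FDI-6 included. The study describes the RNA-seq replicates as biological, and the labels mention only repeated RNA extractions for a condition. Neither says that each library came from a separate culture, so p-values measure the spread between these libraries, which may in part be technical. No 2 libraries of a group agreed within counting noise (chi-square per gene 3.57 to 62.8). Alternatives were the replicate block, leaving out each library, all 24 libraries in 1 fit, the adjusted p alone, DESeq2 1.42.0, scaling by RLE or by the upper quartile, no low-count filter, and a minimum of 10 counts throughout.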

Additional observations from a re-analysis of the deposited data

Results flagged for a closer look

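In groups of 4 libraries, a library was singled out when its gap to the nearest other, divided by the group's range, exceeded Dixon's 95% critical value. Chance singles out about 1 group in 20, and this held for 4 of 108 groups of member levels. TXNRD1 measured 2399 CPM in siControl replicate 2 against 1619 to 1682 CPM in the other siControl libraries, and 2122 CPM in siFOXM1 replicate 2 against 1489 to 1526 CPM. NFE2L2 measured 74.2 CPM in siMYBL2 replicate 2 against 81.3 to 81.5 CPM, and ME1 measured 176 CPM in siMYBL2 replicate 4 against 144 to 150 CPM (149.7).

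Of the 12 members called in at least 1 comparison, 7 had effects that differed between FDI-6 and at least 1 knockdown. The test was of the difference itself (difference of log2 changes, adjusted p under 0.05). Of all genes 25.1%, 20% and 29.5% differed from siMYBL2, siFOXM1 and siBoth in this test. These shares are for each knockdown singly. The share of all genes that differed from at least 1 knockdown was not taken, so the 7 has no matching background here. The 12 were taken because they had been called, 10 of them in the same FDI6 and control_FDI6 libraries. PIR differed by -0.83, -0.81 and -1.11 from siMYBL2, siFOXM1 and siBoth, OSGIN1 by -0.59, -1.19 and -1.03, FTH1 by -0.81, -0.65 and -0.95, and AKR1C3 by -1.05, -1.07 and -1.07. AKR1C2 differed from siFOXM1 by -1.21 and SLC7A11 by 0.50. ABCC1 differed from siMYBL2 by 0.43 and from siFOXM1 by -0.57. FDI-6 and the siRNAs were given in separate experiments with separate controls, so compound and experiment cannot be told apart in these differences.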

How the results depend on the processing

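For 55 log2 changes of single members the alternatives gave 751 values, of which 692 kept their direction and side of the threshold, 23 fell under it, 14 passed it and 22 changed sign. None of the 33 log2 changes that had passed changed sign. The sign changes were in members near 0 that did not pass. Leaving out 1 library gave -0.051 to 0.027 for KEAP1 and -0.027 to 0.13 for SRXN1 in siMYBL2. In siFOXM1 it gave -0.039 to 0.022 for KEAP1, -0.29 to 0.0030 for TXNRD1, -0.069 to 0.078 for SRXN1, -0.045 to 0.099 for NQO1 and -0.18 to 0.096 for HMOX1. In siBoth it gave -0.012 to 0.17 for KEAP1 and -0.25 to 0.51 for SRXN1, and with FDI-6 -0.053 to 0.020 for GCLM. In siFOXM1, KEAP1 was at 0.00074 with upper-quartile scaling and SRXN1 at -0.0024 without the low-count filter. On the adjusted p alone the calls were 5 in siMYBL2 and 25 with FDI-6, against 18.1% and 38.9% of all genes. Leaving out 1 library gave 1 to 2 calls in siMYBL2 (1 without siMYBL2 replicate 1), 0 in siFOXM1, 1 to 2 in siBoth (1 without siControl_Both replicate 2) and 8 to 11 with FDI-6. It gave 7 to 18 differences against siMYBL2 (16 without siMYBL2 replicate 3, 18 without siControl replicate 4), 6 to 14 against siFOXM1 (7 without FDI6 replicate 1, 6 without control_FDI6 replicate 1), 8 to 13 against siBoth and 0 between siBoth and siMYBL2. With the replicate block within each experiment these differences numbered 27, 29, 25 and 3. Of all genes, 19.4% were lower and 22.6% higher against siMYBL2 under this block, 18.1% and 19.6% against siFOXM1, and 21.6% and 24.1% against siBoth. Between siBoth and siMYBL2 4.53% were lower and 2.05% higher. No paired call of the FDI-6 comparison changed, where the numbers do not pair the libraries, and the block moved all calls of siFOXM1 from 106 to 401 genes. With all 24 libraries in 1 fit GPX2 lost its call with FDI-6 (log2 change -1.11, adjusted p = 0.0772). Without the filter, 17 members differed from siMYBL2. Upper-quartile scaling gave 18 differences against siMYBL2 and 16 against siBoth, moved the median of all genes in these contrasts to -0.13 and -0.17, and with FDI-6 called 10 members lower and 0 higher. It moved the share of higher genes among all calls from 55.5% to 63.8% in siMYBL2, from 43.5% to 59.4% in siBoth, and from 58.9%, 59.3% and 56.3% to 39.6%, 46.9% and 39.4% in the contrasts of FDI-6 with siMYBL2, siFOXM1 and siBoth. The cause of these moves was not tested. CBR3, at 0.579 to 2.16 CPM over all libraries, and SRXN1 in the double knockdown are limited by their low counts.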
